A study of Mus musculus with 21 samples.

Results

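Maturation of conventional type 2 dendritic cells (cDC2) in the mouse thymus was followed here as the change between CCR7- and CCR7+ cells, across all genes measured. The cells compared were 3 libraries of mature thymic cDC2 and 3 libraries of immature thymic cDC2, which were 6 of the 21 RNAseq libraries of the series and were assigned by their labels. All 6 came from C57BL/6 mice aged 6 to 8 weeks with no treatment. CD11c+ cells were enriched with magnetic beads from digested thymus, and the cDC2 were sorted as B220- CD24- CD11b+ CD11c+ cells. Mature cells were CCR7+ Esam+ and immature cells were CCR7- Esam-. The labels list exclusion of F4/80, Ly6g, Ly6c and DX5 for the cDC1 gate and not for the cDC2 gate, whereas the study, where it describes its subsets by cytometry, takes both as negative for F4/80. The exclusion of B220 would remove B cells and plasmacytoid dendritic cells. Each library pooled several mice, and a library is therefore a pool and not an animal. The other 15 libraries were immature and mature thymic cDC1, immature splenic cDC1 and immature splenic cDC2.

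Dendritic cells carry antigen to developing T cells in the thymic medulla, where strongly self-reactive thymocytes are deleted or turned into regulatory T cells. cDC2 are the SIRPα+ subset, with a strong capacity to present peptides on class II molecules, and part of them enters the thymus from the blood carrying peripheral antigen. When a dendritic cell matures, with or without microbial stimulation, it takes up less antigen, raises the chemokine receptor CCR7 that steers it towards CCL19 and CCL21, extends actin-rich dendrites and changes its costimulatory and regulatory ligands.

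Between 14266867 and 40119669 reads were recovered per library in the 6 libraries, and the values below are read counts normalized by a size factor per library. Replicates were numbered in the order of the samples. Mature replicate 3 stood apart from the other mature libraries. Its library label opens with the number 569, those of the other 5 with 6 to 11, and the labels do not say what the number stands for. In a chi-square test of gene counts between pairs of libraries, the statistic divided by its degrees of freedom was 155 and 135 for the pairs with replicate 3, against 29.1 for mature replicates 1 and 2 and 22.3 to 40.6 for the immature pairs. Among the 9895 genes with a mean of at least 100 in mature cells, 529 lay more than 2-fold from the mean of replicates 1 and 2, of which 435 were lower, whereas 65 differed by as much between replicates 1 and 2. Results that depend on this library are given with and without it. Immature replicate 1 was sequenced in lane 5 and the other 5 libraries in lane 8.

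Of the 14970 genes tested with limma, 5329 were called, that is 35.6%, at an adjusted p below 0.1 and a change above 2-fold. They were 2781 genes that rose in mature cells (18.6%) and 2548 that fell (17.0%), and these shares are the background against which the gene lists below are read. The median log2 fold change of all tested genes was 0.04. A change above 8-fold was found in 816 genes that rose and 532 that fell. Mature and immature libraries did not overlap in 60.0% of all tested genes and in 5165 of the called ones. Without mature replicate 3, 5066 genes were called, and 4728 of the original calls held in the same direction. With bulk libraries, fewer cells of a type and less RNA per cell cannot be told apart. Fold changes are on the log2 scale of value plus 1, mature minus immature, with their standard error (SE), and a number in parentheses after a gene is its log2 fold change. Genes are said to rise or fall only when called.

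**Figure D1:**
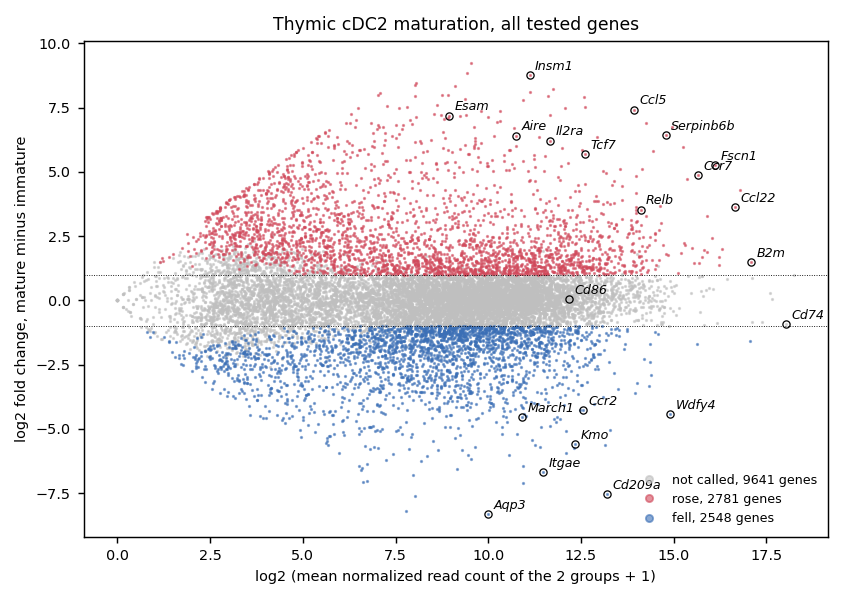
Log2 fold change between mature and immature thymic cDC2 (vertical axis) against the log2 of the mean normalized read count plus 1 (horizontal axis) for the 14970 tested genes. Red points rose (2781 genes), blue points fell (2548) and grey points were not called (9641), and the circles mark named genes from Insm1 among the highest to Aqp3 among the lowest.

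The transcripts of the sorted proteins separated the libraries in the direction of the gates, which is what the sort selected and not a finding. Ccr7 (ENSMUSG00000037944, chromosome 11 from 99144196 to 99155077, mm10) had normalized read counts of 2662, 3608 and 3986 in the immature and 92491, 115572 and 91722 in the mature libraries (log2 fold change 4.88 ± 0.33 (SE), adjusted p = 2.98e-10). Esam (ENSMUSG00000001946, chromosome 9 from 37528078 to 37538319), an adhesion molecule of the immunoglobulin family, was near the floor of detection in the immature cells, with 1.07, 8.70 and 14.0 in the immature and 1104, 924 and 896 in the mature libraries (log2 fold change 7.18 ± 0.55 (SE), adjusted p = 1.53e-09). Sirpa (ENSMUSG00000037902, chromosome 2 from 129592835 to 129632228), the inhibitory receptor that defines cDC2, had values of 16706, 13773 and 15429 in the immature and 8425, 8398 and 5415 in the mature libraries. The mature libraries were all lower, with replicate 3 the lowest (log2 fold change -1.07 ± 0.25 (SE), adjusted p = 0.00148), and without replicate 3 the change was -0.86 and no longer above 2-fold. Sirpa was still far above its level in thymic cDC1, which had means of 234 when immature and 392 when mature. Xcr1, the chemokine receptor that defines cDC1, had 20.7, 25.1 and 11.0 in the mature cDC2, against a mean of 440.3 in mature cDC1. Within cDC2, Xcr1 was higher in the immature libraries and fell (log2 fold change -3.42).

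Transcripts of the integrin subunits used in the gate fell. Itgam, which encodes CD11b, had 502, 445 and 305 in the immature and 25.3, 32.7 and 3.14 in the mature libraries. The mature libraries were all far below the immature ones although the gate was CD11b+ (log2 fold change -4.73 ± 0.63 (SE), adjusted p = 3.29e-06), and the change was -3.78 without replicate 3. Itgax, which encodes CD11c, fell to a lesser extent (37820.5, 37286 and 37614 against 6077, 6243 and 3384, log2 fold change -2.90). Cd24a, which encodes the antigen absent from the gate, was not called, at 2108 ± 522 and 2137 ± 496 (mean ± SD, n = 3 each, log2 fold change 0.03 ± 0.22, adjusted p = 0.936). In mature cDC1, sorted as CD24+, its mean was 3257.

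Of 31 tested genes in a list of cDC2 surface markers and dendritic cell transcription factors, 6 rose and 13 fell, with a median log2 fold change of -0.62. The genes that rose include Id2, Irf8 and Relb, which are not markers of cDC2, and those that fell include the cDC2 lectin genes Cd209a, Clec10a and Mgl2. Irf4, Klf4, Zeb2 and Notch2, which control cDC2 development, were not called, with changes of -0.19, -0.30, -0.58 and -0.77. The growth factor receptor Csf1r fell from 13161 to 2771 on average (-2.66), with 3826, 3892 and 595 in the 3 mature libraries and a change of -1.76 without replicate 3, while Flt3 was not called (0.49) and Csf2rb, the common beta chain of the GM-CSF receptor, rose (1.57). Runx1 and its partner Cbfb fell by 2.86 and 1.29 on the log2 scale. Among transcription factors known for cDC1 development, Id2, Irf8 and Batf3 rose, and Nfil3 (0.52) and Bcl6 (-0.53) were not called. Id2 had values of 2435, 3851 and 2829 in the immature and 19834, 27712 and 31844 in the mature libraries (log2 fold change 3.12 ± 0.21 (SE), adjusted p = 2.62e-10). Irf8 followed the same pattern, with 1781, 2534 and 3086 in the immature and 13229, 17175 and 10958 in the mature libraries (log2 fold change 2.49 ± 0.25 (SE), adjusted p = 7.48e-08), and Batf3 rose by 2.78. Of the 16 genes in the cDC1 marker list 3 rose, namely these, and 9 fell, among them Clec9a (-3.22), Naaa (-4.61) and Wdfy4 (-4.43). The list summed to 78622 to 90869 in immature libraries, with Wdfy4 the largest part, and to 45759 to 57167 in mature ones. The part of cDC1 transcripts in these changes was not tested.

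**Figure D2:**
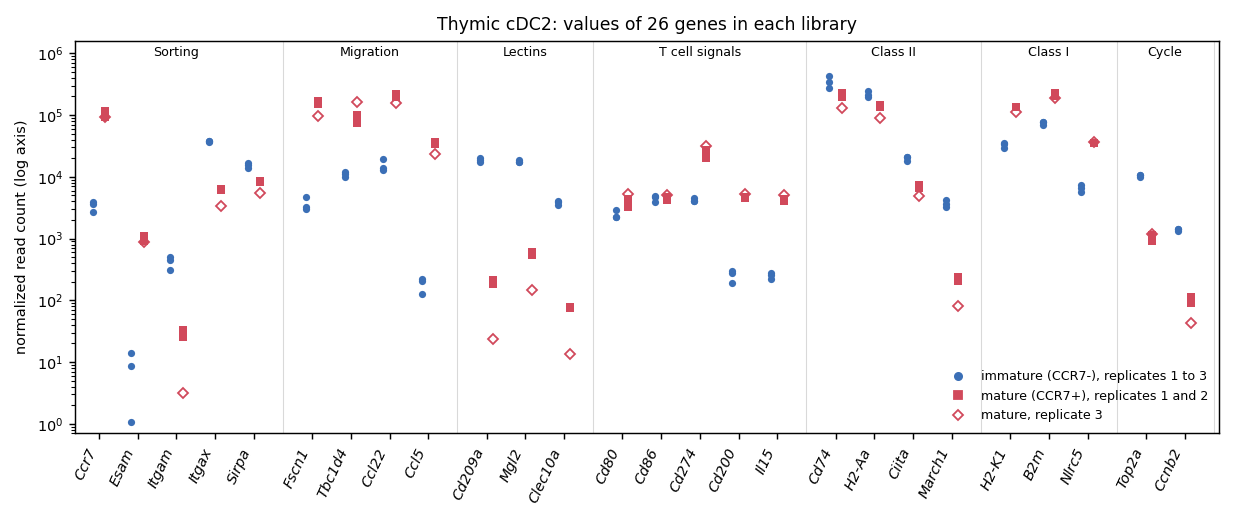
Normalized read counts (log axis) of 26 genes in each of the 6 thymic cDC2 libraries, with circles for immature, filled squares for mature replicates 1 and 2 and open diamonds for mature replicate 3. Ccr7, Fscn1 and Ccl22 were higher in all mature libraries, Cd209a, Mgl2 and March1 lower, and the open diamond lies below the squares for Cd209a, Mgl2, Clec10a and Itgam.

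Markers of other cell types that the gates could hold were summed per library. The 22 macrophage markers summed to values of 65582, 52229 and 66392 in the immature libraries and 68441, 75393 and 16684 in the mature ones, so that replicate 3 alone was low. The complement gene C1qb had 2753, 1717 and 3148 in the immature and 4526, 5056 and 480.3 in the mature libraries. Mature replicates 1 and 2 lay above all immature libraries and replicate 3 below them (log2 fold change -0.14 ± 0.79 (SE), adjusted p = 0.904, 0.96 without replicate 3). Apoe showed the same split, with 4875, 2691 and 3469 in the immature and 18657, 17151 and 1872 in the mature libraries. It was not called (log2 fold change 1.24 ± 0.76 (SE), adjusted p = 0.193), but without replicate 3 its change was 2.32 (adjusted p = 0.00812). On recovered reads Apoe passed the thresholds with all libraries, at 1.81 and 1.76 with edgeR (TMM and RLE factors) and 1.76 with DESeq2. Of this list 2 rose, Vcam1 (2.61) and the transcription factor Spic (3.78), at 3587, 3978 and 3483 and 437, 436 and 455 in the mature libraries, and 6 fell, with 3 rising and 4 falling without replicate 3. No marker of the list was at 0 in all 6 libraries. The part of these transcripts in the results below was not tested, and each result that turned on replicate 3 is given without it.

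T-lineage transcripts were more abundant in the mature libraries. Of 20 tested, 16 rose. Cd3e had 4.27, 8.70 and 14.0 in the immature and 29.9, 79.3 and 42.4 in the mature libraries, and Lck had 21.3, 47.5 and 73.2 in the immature and 195, 329 and 177 in the mature libraries. The list without Tcf7 summed to 1833 to 2905 in immature and 4449 to 6083 in mature libraries. Tcf7, which encodes the transcription factor TCF1, stood apart from the list, at 154, 279 and 305 in the immature and 12698, 11323 and 12501 in the mature libraries (log2 fold change 5.68 ± 0.26 (SE), adjusted p = 1.15e-12). Per kilobase of exon, its mean in mature cells was 4638 against 79.8 for Lck and 12.4 for Cd3e. Aire also stood apart from the thymic epithelial markers of its list. Aire, the regulator of tissue-restricted antigens in medullary epithelium, had 19.2, 50.2 and 60.7 in the immature and 3978, 2807 and 3439 in the mature libraries (log2 fold change 6.40 ± 0.67 (SE), adjusted p = 1.46e-07), or 891 per kilobase in mature cells, while the keratins Krt5 and Krt8 had 178, 237 and 111 and 168, 253 and 120.1 in the mature libraries, or 79.7 and 92.1 per kilobase. Krt5 (2.40), Krt8 (2.02), Krt14 (2.13), Krt18 (1.67) and Psmb11 (3.06) rose, Krt8 without a call when mature replicate 2 was left out (1.75), and Epcam fell (-3.19). The stromal list as a whole, with 7 of 13 rising and 3 falling, summed to 6198 to 6439 in immature and 4345 to 5217 in mature libraries. The part of T-lineage and epithelial transcripts in the changes below was not tested.

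Monocyte and neutrophil markers were lower in mature cells, summing to 19913 to 24307 and 1028 to 2443, with 1 of 11 rising and 6 falling. The neutrophil genes Camp, Lcn2 and Ly6g had no read in any of the 6 libraries. B and NK cell markers summed to 3587 to 4874 and 1527 to 1784 (1 rose and 2 fell of 10, or 2 and 1 without mature replicate 3, with the NK cell gene Ncr1 at 0 throughout), and plasmacytoid dendritic cell markers to 14413 to 15941 and 15689 to 19465 (5 rose and 6 fell of 12).

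**Figure D3:**
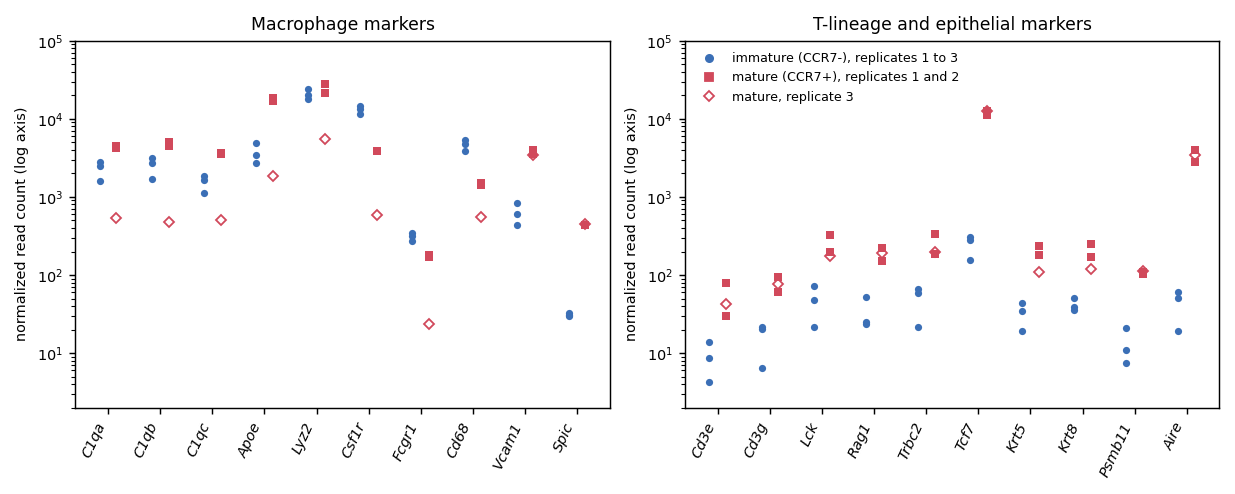
Normalized read counts (log axis) of macrophage markers (left) and of T-lineage and epithelial markers (right) in each of the 6 thymic cDC2 libraries, with symbols as in the legend. Mature replicate 3 lay below the other 5 libraries for C1qa, C1qb, C1qc, Apoe, Lyz2, Csf1r, Fcgr1 and Cd68 and beside the other mature ones for Vcam1 and Spic, and Tcf7 and Aire lay well above the other markers shown on the right in mature cells.

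Genes with a mean of at least 100 and no overlap between the groups were ranked by their change. At the top were Gal3st2, Insm1, Art2a-ps, Myh7, Dscaml1, Oprd1, Gli3, Cdh2, Mmp7, Tmem150c, Tead2, Crispld2, Apol10b, Asprv1 and Nid1, with log2 fold changes of 8.85 down to 7.62, the last at 7.00 without immature replicate 2. Insm1, a transcription factor of neuroendocrine cells, had 5.34, 12.7 and 10.9 in the immature and 4536, 4013 and 4719 in the mature libraries. Dscaml1, a neural adhesion molecule, had 14.9, 27.5 and 24.9 in the immature and 7338, 7361 and 5822 in the mature libraries. Crispld2, a secreted protein, had the highest level of the 15, at 43.8, 64.3 and 45.2 in the immature and 13014, 11927 and 11815 in the mature libraries. Gli3, a transcription factor of Hedgehog signalling, and Mmp7, a matrix metalloprotease, had no read in any immature library and 263, 230.4 and 312 and 210.4, 224 and 344 in the mature ones, at least 81.4-fold and 78.7-fold higher when 3 reads per library are taken as the floor. Without mature replicate 3 the 15 changes lay between 7.53 and 8.90.

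At the other end the 15 largest falls included Aqp3, Cd209c, Cd209a, Itgae, Ctnnd2, Clec10a, Cyp2s1, Gpr82, Cd163, F2rl2, Cd300lg, Atp8b4, Klrb1b and Chi3l7, with -8.31 to -5.96. Aqp3, a water and glycerol channel, had 2218, 1782 and 2136 in the immature and 18.4, 12.5 and 0 in the mature libraries, and its change was -6.97 without replicate 3. Itgae, the alpha E integrin, had 4697, 5812 and 6455 in the immature and 47.6, 104 and 30.6 in the mature libraries (log2 fold change -6.69 ± 0.39 (SE), adjusted p = 4.23e-11). Ctnnd2, a catenin, had 1181, 1127 and 1092 in the immature and 11.5, 20.2 and 5.49 in the mature libraries. Mature replicate 3 was the lowest library for all 15, and without it the 15 changes lay between -6.97 and -4.75.

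Chemokine receptor genes changed in both directions. Of 25 tested ligands and receptors, 6 rose and 13 fell, with a median of -1.26. Those that rose include Ccr7, on which the cells were sorted. Among receptors, Cxcr5, which guides cells to follicles, rose from 8.54, 6.70 and 9.35 to 277, 288 and 181 (4.74). Ccr2, the receptor for CCL2 that brings cells from the blood, fell from 12282, 11607 and 10539 to 869.8, 903 and 268 (log2 fold change -4.26 ± 0.77 (SE), adjusted p = 0.000109). Ccr1 (-2.70, or -2.09 without mature replicate 3), Ccr9 (-1.26, or -0.85 and not called without mature replicate 1) and Cx3cr1 (-1.61, or -0.83 and not called without mature replicate 3) also fell. Ccr6 and Cxcr4 were not called (0.69 and -0.70).

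Ligands changed in both directions as well. Ccl22, which attracts CCR4+ thymocytes and regulatory T cells, had 13088, 13958 and 19670 in the immature and 199572, 221203 and 155292 in the mature libraries (log2 fold change 3.63 ± 0.27 (SE), adjusted p = 1.04e-09). Ccl17, the other ligand of CCR4, was not called (5196, 5284 and 6586 against 9285, 11579 and 6581, 0.66 ± 0.71, adjusted p = 0.478). Ccl5 had 218, 125 and 206 in the immature and 34052, 36000.5 and 23218 in the mature libraries (log2 fold change 7.42 ± 0.33 (SE), adjusted p = 8.78e-13). Cxcl16 and Cxcl1 rose as well (1.55 and 6.10). Ligands known from inflammation were among those that fell, namely Ccl3 (-2.54), Ccl4 (-3.95), Ccl6 (-2.13), Ccl9 (-2.07) and Cxcl9 (-2.31), and Ccl2 fell by 1.74, with -1.18 and no call without replicate 3.

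Of the actin and migration genes, 8 of 34 rose (23.5%) and 9 fell (26.5%), against 18.6% and 17.0% of all tested genes (median -0.12). Fscn1, which encodes the actin-bundling protein of dendrites, went from 3198, 2972 and 4640.2 to 170178, 152161 and 95263 (log2 fold change 5.26 ± 0.40 (SE), adjusted p = 1.24e-09), and the lowest mature library, replicate 3, was still above all immature ones. Tbc1d4, a regulator of Rab GTPases, had 9763, 12149.8 and 11318 in the immature and 73305, 98998 and 164738 in the mature libraries (3.27). Marcks, Marcksl1, Myo1g and Fmnl2 rose by 2.46, 2.41, 2.22 and 1.43. The small GTPase Rac2, Vasp, Evl, Coro1c and Ezr fell, by 2.28, 1.34, 2.10, 1.47 and 1.19. The Arp2/3 subunits Arpc1b (-0.25) and Arpc2 (-0.43) were not called.

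Leukocyte integrin chains fell and the chains of VLA-4 rose. Of 38 adhesion genes 14 rose, among them Esam, on which the cells were sorted, and 12 fell. Itgb2, the common beta 2 chain, had 9806, 9300 and 9430 in the immature and 1459, 1711 and 803 in the mature libraries (log2 fold change -2.91 ± 0.23 (SE), adjusted p = 2.57e-09). Its partner Itgal fell by 2.42, and Itgb7 by 3.83. Itgb1 and Itga4, which form VLA-4, rose (1.38 and 1.71), and Itgb8, whose product activates latent TGF-beta, had 9.61, 18.7 and 12.5 against 416, 522 and 432 (5.01). Among tetraspanins, Cd63 (3.76), Tspan3 (3.82), Cd81 (2.37) and Tspan33 (1.71) rose and Cd53 (-3.66) and Cd9 (-2.66) fell. Icam1 rose by 2.12, and Cd44 by 1.14.

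Ligands and receptors of costimulation and coinhibition changed in both directions. Of 25 tested, 11 rose and 6 fell (median 0.88). The CD28 ligands Cd80 and Cd86 were not called. The study describes a more mature phenotype of CCR7+ Esam+ thymic cDC1 and cDC2, with the highest levels of the markers CD80 and CD86. The read counts here measure RNA and not the level at the cell surface. Cd80 had 2238, 2903 and 2266 in the immature and 3204, 4308 and 5206 in the mature libraries (log2 fold change 0.76 ± 0.19 (SE), adjusted p = 0.00273), a separation below 2-fold, and Cd86 had 3946, 4798 and 4858 in the immature and 4144, 4778 and 5077 in the mature libraries (log2 fold change 0.04 ± 0.16 (SE), adjusted p = 0.856), with the groups overlapping. Cd40, which receives help from T cells, rose from 2268, 2636 and 3000 to 13249, 14508 and 10888 (2.29). Cd274, which encodes PD-L1, rose from 4010.5, 4493 and 4104 to 20325, 26804 and 32136 (log2 fold change 2.63 ± 0.16 (SE), adjusted p = 8.8e-11), and Pdcd1lg2, which encodes PD-L2, by 1.74. Cd200, the ligand of an inhibitory receptor, had 188, 294 and 273 in the immature and 4573, 4727 and 5235 in the mature libraries (log2 fold change 4.29 ± 0.23 (SE), adjusted p = 9.47e-12). Icosl (2.10), Tnfsf4 (3.55), Tnfsf9 (1.30), Cd70 (4.48) and Slamf1 (5.38) rose. Havcr2, which encodes TIM-3, fell from 11094, 11549.8 and 9826 to 616, 797 and 364 (-4.26), and Lgals9, one of its ligands, by 2.40. Cd83, used as a maturation marker, was not called (0.55).

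Genes of TNF receptors rose in 10 and fell in 6 of 20 cases. Tnfrsf4 (OX40) and Tnfrsf9 (4-1BB), known from activated T cells, had 5717, 5063 and 3501 and 2119.7, 1823 and 1965 in the mature libraries against means of 92.2 and 48.9 in the immature ones (5.65 and 5.34). Tnfrsf11a, which encodes RANK, rose by 3.47, and Fas by 4.16. The receptors of TNF parted. Tnfrsf1b had 3484, 3664 and 3559 in the immature and 30847, 26574 and 21469 in the mature libraries (2.87), whereas Tnfrsf1a, the receptor with a death domain, had 2752, 2794 and 2587 in the immature and 547, 585 and 307 in the mature libraries (-2.55). Tnfrsf13b, a receptor of BAFF, and the neurotrophin receptor Ngfr fell, by 3.62 and 4.92.

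Cytokine genes rose more often than they fell, 15 against 4 of 26, with a median of 1.80. Il15, a cytokine presented to CD8+ T and NK cells on its receptor chain, had 219.9, 278 and 259 in the immature and 4029.8, 4319 and 5018 in the mature libraries (4.14), and Il15ra, that chain, had 115, 156 and 121 in the immature and 8004, 7289 and 8789.7 in the mature libraries (5.94). All mature libraries were above all immature ones for both. Il2ra, the alpha chain of the IL-2 receptor, had 61.9, 85.7 and 117 in the immature and 6252, 5918 and 6978 in the mature libraries (log2 fold change 6.21 ± 0.72 (SE), adjusted p = 5.21e-07). Il12b, the shared subunit of IL-12 and IL-23, rose from 222, 297 and 218 to 1975, 4019 and 3316 (3.61), while its partners Il12a and Il23a did not pass the filter on low values. Il6 (1.82), Tnf (1.64), Lta (3.86), Ebi3 (1.65) and the IL-18 inhibitor Il18bp (3.39) rose. Il1b had 36746, 37920.4 and 36918 in the immature and 3383, 5732 and 2654 in the mature libraries, the highest immature level of the list, and fell (log2 fold change -3.32 ± 0.26 (SE), adjusted p = 1.81e-09). Tgfb1, Vegfa and Osm also fell, by 2.19, 1.40 and 1.21.

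Of 30 NF-kB genes 17 rose and 1 fell (median 1.21), and the counts were 17 and 1 without replicate 3. NF-kB dimers of the canonical arm and of the RelB and p52 arm control maturation genes in dendritic cells. Relb had 2593, 2699 and 3122 in the immature and 37941, 33229 and 26545 in the mature libraries (log2 fold change 3.53 ± 0.27 (SE), adjusted p = 1.49e-09), and its partner Nfkb2 had 6223, 6152 and 5911 in the immature and 25197, 24817 and 20261 in the mature libraries (1.94). Rela (1.30) and Rel (1.07) rose, with Rel at 0.74 and 0.98 and not called without mature or immature replicate 3, and Nfkb1 was not called (-0.59). Of the inhibitors in the list, Nfkbia, Nfkbib, Tnfaip3 and Tnip1 rose, and Nfkbie (0.46), Nfkbid (-0.38), Cyld (0.44), Tnip2 (0.86) and Tnip3 (-0.59) were not called. Nfkbia had 15584, 13446 and 15243 in the immature and 51477, 72726 and 73993 in the mature libraries (2.15), Nfkbib rose by 1.83, and Tnfaip3, a deubiquitinase that ends the signal, by 1.44, with Tnip1 at 1.11. Among adaptors, Traf1 (2.61), Traf2 (1.52), Traf3 (1.97), Traf6 (1.85), Birc2 (3.64) and Birc3 (1.59) rose.

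The 250 bases before the starts of these genes were searched for the NF-kB consensus on both strands, since most of the list rose. RefSeq windows (GRCm38.p6) were at hand for 24 of the 30 genes, and 11 of the 24 held the consensus before at least 1 start. Of the 15 that rose, 6 held it, namely Nfkb2, Nfkbia, Rel, Tnfaip3, Tnip1 and Traf3. The other holders were Bcl10, Cyld, Nfkbid, Nfkbie and Tnip3, which were not called. Within the list, the consensus was thus not more frequent among genes that rose than among the rest. The consensus was held by 8.23% of all 27025 genes with a window, by 13.9% of 1904 genes that rose, 10.1% of 1778 that fell and 9.91% of 6198 tested genes that were not called. A match in these letters describes the sequence and is not a binding site. The Nfkb2 window (chr19:46304658-46304736, plus strand) is shown because it held matches close to the start, with the matched letters in capitals.
Nfkb2: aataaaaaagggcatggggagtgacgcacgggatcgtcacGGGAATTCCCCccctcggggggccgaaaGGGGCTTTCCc

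JAK, STAT, SOCS and IRF genes rose in 9 and fell in 4 of 28 cases (median 0.46). Stat4 had 177, 216 and 160.4 in the immature and 3908, 4377 and 5874 in the mature libraries (4.66), and Stat3 and Tyk2 rose by 1.59 and 2.05, whereas Stat2 (-0.68) and Stat6 (0.35) were not called. Among the SOCS inhibitors of cytokine signals, Socs2 had 662, 724 and 653 in the immature and 21778, 20175 and 28509.5 in the mature libraries (log2 fold change 5.09 ± 0.25 (SE), adjusted p = 3.95e-12) and Socs1 rose by 2.70, while Socs3 and Socs5 fell by 1.48 and 1.23. Irf1 rose from 2047, 2488 and 2243 to 17803, 18896 and 17309 (3.00). Irf7, the factor that amplifies type I interferon, fell from 10072, 12262 and 11561 to 4041, 4579.8 and 2096 (-1.73).

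Interferon-stimulated genes fell more often than they rose. Of 35 tested, 6 rose and 17 fell (median -0.52), and 14 fell without replicate 3. Ifit3, which binds viral RNA complexes, had 2984, 4036 and 3428 in the immature and 401, 478 and 348 in the mature libraries (log2 fold change -3.09 ± 0.26 (SE), adjusted p = 4.99e-09). Ifit1, Ifit2, Oas2, Ifi44 and Rtp4 fell by 1.58, 2.53, 2.16, 1.99 and 2.04. Isg15 and Usp18 were not called (-0.05 and -0.11). The guanylate-binding proteins, GTPases induced mainly by interferon gamma, rose in part. Gbp2 had 759, 821 and 1086 in the immature and 18227, 18316 and 22905 in the mature libraries (log2 fold change 4.49 ± 0.26 (SE), adjusted p = 2.72e-11), and Gbp3, Gbp4 and Gbp5 rose by 1.95, 3.25 and 4.76, the last by 4.04 without immature replicate 2. Gbp7 fell by 1.76, but lost the call without any 1 of 4 libraries (immature replicates 1 and 2, mature replicates 1 and 3, with changes of -1.93 to -1.26). Mx1 rose (1.91) and Mx2 fell (-1.20).

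Windows of 25 of these genes were searched for GAAANNGAA, the core of the interferon-stimulated response element, on both strands. It was found before 16 of them, 4 of 4 that rose and 8 of 14 that fell, against 8.18% of all genes with a window. The shares were 7.51% of all that rose, 10.1% of all that fell and 7.16% of tested genes not called. Gbp2 (chr3:142620565-142620653, plus strand) and Ifit3 (chr19:34583334-34583475, plus strand) are shown since they moved in opposite directions and both held the motif, which lies on the other strand, so that its reverse complement is in capitals.
Gbp2: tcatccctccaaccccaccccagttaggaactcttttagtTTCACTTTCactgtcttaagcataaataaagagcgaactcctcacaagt
Ifit3: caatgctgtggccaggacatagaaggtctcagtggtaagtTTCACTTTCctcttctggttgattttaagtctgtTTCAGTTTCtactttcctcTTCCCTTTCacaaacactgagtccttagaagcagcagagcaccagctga

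Of 21 genes of the class II pathway, 4 rose (19.0%) and 6 fell (28.6%), against 18.6% and 17.0% of all tested genes (median -0.71). The share that rose was thus near that of all genes, and 3 rose and 6 fell without replicate 3. Ciita, the master regulator of class II transcription, had 20786, 21033 and 18179 in the immature and 7245, 6692 and 4971 in the mature libraries (log2 fold change -1.68 ± 0.34 (SE), adjusted p = 0.000343). March1, the ubiquitin ligase that removes class II and CD86 from the surface of immature cells, had 3572, 4204 and 3279 in the immature and 206, 235 and 80.1 in the mature libraries (log2 fold change -4.54 ± 0.54 (SE), adjusted p = 6.75e-07), and the mature libraries were lower by more than the spread of either group. H2-DMa and H2-DMb1, which load peptide, fell by 2.09 and 2.39, and H2-Ob, which restrains them, by 3.55. H2-Ab1 had 183841, 191774 and 233949.7 in the immature and 81745, 85953 and 45006 in the mature libraries (log2 fold change -1.57 ± 0.44 (SE), adjusted p = 0.00545). H2-Aa, H2-Eb1 and the invariant chain Cd74 stayed under the 2-fold limit, at -0.83, -0.83 and -0.94 (adjusted p = 0.0417, 0.0544 and 0.063), with mature replicate 3 the lowest library for each. Cd74 passed the limit without immature replicate 2 or mature replicate 1 or 2 (-1.11, -1.11 and -1.01). Rfx5 and Rfxank, which bind class II promoters, rose (1.13 and 1.10).

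The study asked how enzymes of antigen processing are expressed as dendritic cells develop, with Prss16 (also called Tssp), Ctss and Ctsl in its centre. Prss16 rested on few reads, with values of 50.2, 25.4 and 21.8 in the immature and 50.7, 91.9 and 76.1 in the mature libraries, and was not called (log2 fold change 1.19 ± 0.70 (SE), adjusted p = 0.175). Ctss, the cathepsin that trims the invariant chain in dendritic cells, had 40133, 40218 and 40617 in the immature and 32750.2, 36749 and 28327 in the mature libraries (log2 fold change -0.31 ± 0.15 (SE), adjusted p = 0.0947). Ctsl had 347, 354 and 472 in the immature and 499.8, 754 and 509 in the mature libraries (log2 fold change 0.57 ± 0.26 (SE), adjusted p = 0.0795). The groups did not overlap for any of the 3, as for 60.0% of all tested genes. For Prss16 the lowest mature value, 50.7, lay just above the highest immature one, 50.2. Prss16 missed the limit on the adjusted p, and the changes of Ctss and Ctsl were below 2-fold. Without replicate 3 the changes were 1.14, -0.22 and 0.66, also without a call. Prss16 was called, however, with a pseudocount of 8 (1.03), in a fit of the 6 libraries alone (1.19) and with reads thinned to the smallest library (1.25). Of the 25 lysosomal proteases and inhibitors, 5 rose and 5 fell, shares near the 18.6% and 17.0% of all tested genes. Without replicate 3, 7 rose and 3 fell. Serpinb6b, an inhibitor of cytotoxic proteases, had 478, 755 and 737 in the immature and 47849, 58389 and 60757 in the mature libraries (log2 fold change 6.43 ± 0.24 (SE), adjusted p = 9.84e-14). Serpinb9, which blocks granzyme B, had 956, 1166 and 1157 in the immature and 29730, 30787 and 34199.8 in the mature libraries (log2 fold change 4.85 ± 0.20 (SE), adjusted p = 4.29e-13). Lgmn, the asparaginyl endopeptidase, rose by 1.58, and Ctse fell by 2.60.

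Class I presentation rose in 18 of 25 genes and fell in 2 (median 1.36), and the counts were the same without replicate 3. H2-K1 had 28801, 33999 and 35039 in the immature and 137603, 136727 and 113382 in the mature libraries (log2 fold change 1.99 ± 0.27 (SE), adjusted p = 5.08e-06). B2m, the light chain, had 77382, 68177 and 76990 in the immature and 201798, 228696 and 189617 in the mature libraries (log2 fold change 1.48 ± 0.22 (SE), adjusted p = 1.28e-05), and per kilobase of exon its level in mature cells, 240353, exceeded that of Cd74, 110816, whereas in immature cells Cd74 was the higher (209876 against 86259). Nlrc5, the class I counterpart of Ciita, had 6535, 7368 and 5625 in the immature and 34771, 34749 and 36711 in the mature libraries (log2 fold change 2.45 ± 0.16 (SE), adjusted p = 2.4e-10). The peptide transporter genes Tap1 and Tap2 rose by 1.08 and 1.36 (Tap1 at 0.95 and not called without mature replicate 1), the immunoproteasome subunits Psmb8, Psmb9 and Psmb10 by 1.11, 1.47 and 1.16, and the peptide editor Tapbpl by 3.01. H2-Q4, H2-Q6 and H2-Q7 rose by 2.71, 2.94 and 2.79, but these near-identical genes may share reads. Wdfy4, needed for cross-presentation by cDC1, fell from 56293, 61060.2 and 57921 to 2959.6, 3237 and 2089 (-4.43), and the chaperone Pdia3 by 1.71.

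The NF-kB consensus was held by 9 of 21 class I genes with a window, 7 of the 15 that rose and 0 of the 2 that fell. B2m and the heavy chains H2-K1, H2-D1, H2-Q4, H2-Q6, H2-Q7 and H2-T22 were the 7, and the heavy chains share sequence by descent. The windows of H2-K1 (chr17:34000408-34000498, minus strand) and B2m (chr2:122147521-122147610, plus strand), whose products pair at the cell surface, are shown with the matches in capitals.
H2-K1: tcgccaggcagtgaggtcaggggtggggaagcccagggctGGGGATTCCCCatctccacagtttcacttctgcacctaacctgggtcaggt
B2m: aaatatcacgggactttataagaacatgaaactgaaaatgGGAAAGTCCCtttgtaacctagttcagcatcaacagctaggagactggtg

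Most C-type lectins, receptors of uptake and recognition, fell. Of 25 C-type lectins 21 fell and 3 rose (median -3.33), with the same counts without replicate 3. Cd209a, the mouse DC-SIGN homologue and a cDC2 marker, had 17259, 19971 and 18644 in the immature and 187, 215 and 23.5 in the mature libraries (log2 fold change -7.54 ± 0.66 (SE), adjusted p = 9.53e-09), and without replicate 3 its change was -6.53. Mgl2 and Clec10a, which bind galactose, had 539.7, 602 and 144 and 78.3, 75.2 and 13.3 in the mature libraries against means of 17792 and 3843 in the immature ones (-5.62 and -6.44, or -4.96 and -5.63 without replicate 3). Clec7a, the beta-glucan receptor, fell by 2.40 and Mrc1, the mannose receptor, by 3.53. The 3 lectins that rose were Ly75 (DEC-205), at 905, 1302 and 936 and 13987, 13814 and 17143 (log2 fold change 3.85 ± 0.19 (SE), adjusted p = 2.49e-12), Clec2d (1.63) and Clec2i (1.96), the latter pair being ligands of NK cell receptors.

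Fc, complement and scavenger receptors fell in 13 of 30 cases and rose in 2 (median -1.18), and 10 fell and 4 rose without replicate 3, the library with the low macrophage sum. Fcgr2b, the inhibitory Fc receptor, had 8313, 8348 and 7959.6 in the immature and 1094, 1276 and 320.2 in the mature libraries (log2 fold change -3.42 ± 0.85 (SE), adjusted p = 0.00228, -2.79 without replicate 3). Scarb1 (-3.35), Lrp1 (-3.18, -2.59 without replicate 3) and Cd36 (-2.88) fell. Of the TAM receptors for apoptotic cells Tyro3 rose by 3.70 and Mertk was not called (0.72). Axl fell by 1.29, with a loss of the call without replicate 3 (-0.86). Subunits of the phagocyte NADPH oxidase parted, Cybb falling (-1.50) and Ncf1 and Cyba rising (1.55 and 1.28).

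Of 34 pattern recognition genes 10 fell (29.4%) and 3 rose (8.82%), against 17.0% and 18.6% of all tested genes. The other 21 were not called. Tlr2 (-1.66), Tlr3 (-4.21), Tlr5 (-2.57), Cd14 (-2.69), Myd88 (-1.55) and Nlrp3 (-3.03) fell. Nlrp3, the sensor of an inflammasome that processes IL-1 beta, had 3445, 3629.9 and 3252 in the immature and 283, 705 and 367 in the mature libraries. Tlr9 and the chaperone Unc93b1 were not called (-0.06 and -0.08), and Ly96 rose (2.93).

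**Figure D4:**
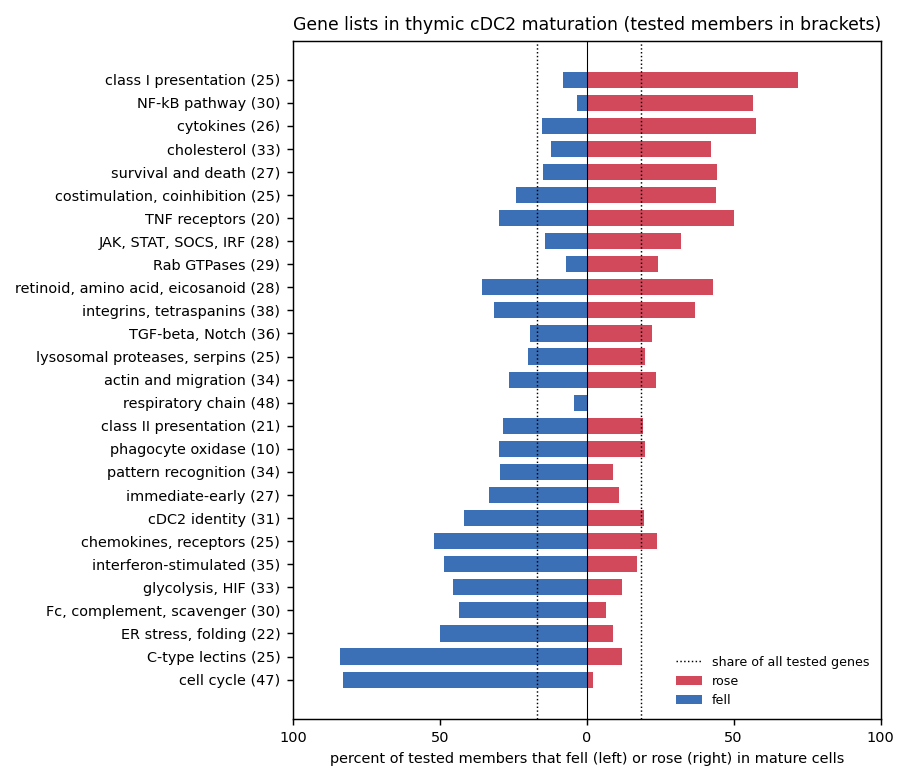
Share of the tested members of 27 gene lists that rose (red, to the right) or fell (blue, to the left) in mature thymic cDC2, in percent, with the number of tested members in brackets and dotted lines at the share of all tested genes (18.6% rose, 17.0% fell). Class I presentation, NF-kB and cytokine genes lie at the top with 72%, 56.7% and 57.7% of members rising, and cell cycle genes and C-type lectins at the bottom with 83% and 84% falling.

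Of 47 cell cycle genes, 39 fell and 1 rose (median -2.56), with the same counts without replicate 3. Top2a, the topoisomerase of dividing cells, had 10045, 10851 and 10698 in the immature and 899.8, 1160.3 and 1207 in the mature libraries (log2 fold change -3.28 ± 0.20 (SE), adjusted p = 6.68e-11). Ccna2 and Ccnb2, cyclins of S phase and mitosis, fell by 4.18 and 4.17, and the replication helicase genes Mcm2 to Mcm7 by 1.79 to 2.96. Mki67 was still measurable in mature cells, at 1506, 2544 and 3023 against 14626, 13141 and 12274 (-2.56). The gene that rose was Ccnd2, a cyclin of G1 (1756, 1761 and 1464 against 6027, 5529 and 6113, log2 fold change 1.83 ± 0.20 (SE), adjusted p = 1.71e-07), whereas Ccnd1, Cdkn1a and Cdkn1b were not called (-0.36, 0.83 and 0.39). CCAAT, the motif of NF-Y in promoters of mitotic genes, was found on either strand of the windows of 27 of 39 cell cycle genes, among them 25 of the 34 that fell, and in 37.5% of all genes. TTTGAA was found in 9 of 39, all of them among the 34 that fell, and in 18.3% of all genes. Ccnb2 (chr9:70421555-70421681, minus strand) is shown for its repeated CCAAT, in capitals.
Ccnb2: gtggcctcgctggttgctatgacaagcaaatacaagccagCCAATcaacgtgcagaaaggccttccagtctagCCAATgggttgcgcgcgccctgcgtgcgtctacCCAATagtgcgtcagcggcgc

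Survival genes rose in 12 and fell in 4 of 27 cases. Bcl2 and Bcl2l1, both inhibitors of apoptosis, went in opposite directions. Bcl2 had 920.2, 869 and 754 in the immature and 106, 132 and 69.1 in the mature libraries (log2 fold change -3.08 ± 0.24 (SE), adjusted p = 2.08e-09) and Bcl2l1, which encodes BCL-XL, had 504, 447 and 467 in the immature and 3146, 3551 and 2395 in the mature libraries (log2 fold change 2.66 ± 0.23 (SE), adjusted p = 6.54e-09). Mcl1 and Bcl2l11 were not called (0.17 and 0.09). Bcl2l14 rose by 4.41 and Cflar, an inhibitor of caspase 8, by 2.18.

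Glycolysis genes fell in 15 and rose in 4 of 33 cases (median -0.97), and 12 fell without replicate 3. Slc2a1, the glucose transporter, and Ldha, which makes lactate, had 335, 529 and 165 and 1950, 2274 and 1132 in the mature libraries against means of 1932 and 10165 in the immature ones (-2.64 and -2.56). The enolases changed in opposite directions. Eno1 had 10011, 9491 and 12567 in the immature and 3383, 3969 and 1831 in the mature libraries (-1.87). Eno2 had 106, 155 and 98.1 in the immature and 6590.1, 5687 and 5123 in the mature libraries (5.61). Eno3 had 319, 463 and 459.5 in the immature and 6174, 5426 and 5193 in the mature libraries (3.77). The means per kilobase in mature cells were 569, 1233 and 3219, which depend on the annotated exon length. Hk2 and Pfkp fell by 2.99 and 2.48, while Pfkfb3, which makes an activator of phosphofructokinase, rose from 5301, 6391 and 5528 to 46773, 42411 and 48607 (log2 fold change 3.00 ± 0.13 (SE), adjusted p = 6.4e-13). Respiratory chain subunits were largely not called, 46 of 48, with 2 falling, Sdhc (-1.29) and Atp5g1 (-1.44), and a median of -0.35. Without replicate 3 1 rose and 3 fell, and in lane 8 alone 4 fell.

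Genes of cholesterol synthesis rose more often than they fell. Of 33 sterol genes 14 rose and 4 fell (median 0.61). Idi1, an isomerase of the mevalonate pathway, had 329, 408 and 379 in the immature and 3008, 3866 and 4074 in the mature libraries (log2 fold change 3.28 ± 0.32 (SE), adjusted p = 4.23e-08). Hmgcs1, an early enzyme of that pathway, rose by 1.93 and the squalene synthase gene Fdft1 by 2.46. Srebf2, which controls them, was not called (0.47). The exporter Abcg1 and the lysosomal carrier Npc2 rose (1.62 and 1.93), and Npc1 and the desaturase Scd2 fell (-1.20 and -1.78).

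Enzymes of retinoid, amino acid and eicosanoid metabolism rose in 12 and fell in 10 of 28 cases. Aldh1a2, which makes retinoic acid, had 124, 122 and 91.9 in the immature and 1719.7, 1569.5 and 1356 in the mature libraries (log2 fold change 3.78 ± 0.66 (SE), adjusted p = 8.72e-05). Il4i1, an amino acid oxidase, rose from 5477, 6691 and 7302 to 52014, 45466 and 33940 (2.74). Kmo, the kynurenine monooxygenase, had 9249.6, 11096 and 10147 in the immature and 210.4, 212 and 208 in the mature libraries (log2 fold change -5.59 ± 0.50 (SE), adjusted p = 1.53e-08). Ido1 and Ido2, which begin that pathway, rose (4.08 and 4.72). Both rested on few reads, with means of 5.72 and 0.875 in immature and 75.5 and 45.5 in mature cells. Of the first steps of leukotriene synthesis, Alox5 fell by 5.07 and Alox5ap by 4.74, whereas Ltc4s rose by 2.86, Ptgs2 by 1.26 and the prostaglandin E2 receptor Ptger4 by 1.25. Arg2 had 12.8, 26.1 and 23.4 against 451, 562 and 698 (4.75).

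Genes of folding and stress in the endoplasmic reticulum fell in 11 and rose in 2 of 22 cases (median -1.26). Hspa5, which encodes BiP, had 71886, 85668 and 75899.6 in the immature and 17836, 24744 and 30975 in the mature libraries (log2 fold change -1.70 ± 0.22 (SE), adjusted p = 2.69e-06), and Xbp1, Hsp90b1, Pdia4 and Pdia6 fell by 1.94, 2.26, 2.71 and 2.53. Atf4 and Ddit3 were not called (0.10 and 0.22), and Ppp1r15a rose (1.52). Of 29 Rab GTPases, 7 rose and 2 fell. Rab9, which recycles from late endosomes to the Golgi, had 561, 558 and 551 in the immature and 4282, 5128 and 6955 in the mature libraries (3.26), and Rab8b, Rab30 and Rab38 rose by 2.09, 3.49 and 3.16.

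Immediate-early genes, which respond to handling within minutes, fell in 9 and rose in 3 of 27 cases, and 5 rose and 8 fell without mature replicate 3. Fosb, Jun and Junb were not called (-0.26, 0.38 and 0.32), Fos lay at the limit (-0.99, not called, against -1.04 to -1.12 and a call without immature replicate 1 or 3 or mature replicate 2), Nr4a1, Egr1 and Egr3 fell by 2.83, 1.27 and 4.31, and Klf6 rose by 1.95. Among TGF-beta and Notch genes 8 rose and 7 fell of 36 (22.2% and 19.4%), near the 18.6% and 17.0% of all tested genes. The Notch ligands Jag1 and Dll4 had 2374, 2699 and 2917 and 1413, 1484 and 831 in mature libraries against means of 61.5 and 37.5 (5.42 and 4.99), the receptor Notch1 fell by 2.41 (-1.76 without replicate 3), and Notch2 was not called (-0.77). Tgfbr2 fell by 1.81, and Smad2 (-0.19), Smad3 (0.54) and Smad4 (0.50) were not called.

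The transcripts with the largest share of reads were partly exchanged. In immature cells they were Cd74 (mean 1.6% of reads), H2-Aa (0.985%), Tmsb4x (0.957%), mt-Co1 (0.923%), H2-Ab1 (0.922%), Eef1a1 (0.821%), H2-Eb1 (0.816%) and Actb (0.452%). In mature cells B2m (0.759%), Ccl22 (0.705%) and Tmem123 (0.798%) entered the 8 in place of the class II chains. The other 5 were Tmsb4x (1.52%), Eef1a1 (0.807%), mt-Co1 (0.777%), Cd74 (0.686%) and Actb (0.677%). The 8 genes together took 6.76 to 8.36% of the reads of an immature library and 6.17 to 7.03% of a mature one.

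Levels in the splenic cDC2, which were immature, are set beside those of the thymus for a few of these genes. Ccr7 had a mean of 3782 there (2008 to 5433 in 3 libraries), against 3419 in immature thymic cDC2. Fscn1 and Ccl22 had 662 and 218 in the spleen against 3603 and 15572 in immature and 139201 and 192022 in mature thymic cDC2. Mgl2 was low in the spleen (329.9), high in immature thymic cells (17792) and low again in mature ones (429). Itgam was highest in the spleen (1581 against 417 and 20.4). These levels are given with no test.

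Of the calls, 601 were lost without mature replicate 3, 246 of genes that rose and 355 of genes that fell, and 338 genes were called only in its absence. The most abundant of the called genes that lost the call or moved by more than 1.5-fold were Rel, Eif4a2, Coro1a, Sirpa, Uvrag, Cd209a, Dpp4, Mgl2, Rtn4 and Csf1r. Rel, Eif4a2, Uvrag, Dpp4 and Rtn4 lay just above the 2-fold limit, at 1.02 to 1.10, and just below it, at 0.74 to 0.95, without the library. Uvrag and Dpp4 also lost the call without immature replicates 1 and 3, at 0.99 and 0.91. Coro1a changed from -1.20 to -0.94. Cd209a, Mgl2 and Csf1r stayed called, at -6.53, -4.96 and -1.76.

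Whether a change at maturation differed between cDC2 and cDC1 was tested in the same fit. The difference passed the thresholds in 2035 genes, 13.6% of those tested, 1249 with the larger value in cDC2 and 786 with the smaller, and in 1649 to 2244 when 1 thymic cDC2 library was left out. The numbers that begin the library labels are shared by the subsets, 6, 7 and 8 by immature cDC1 and cDC2 (8 also by a mature cDC1 library) and 569 by replicate 3 of both mature groups. With that number as a random block the count was 2203, 1341 with the larger value in cDC2 and 862 with the smaller. Osm, a cytokine of the IL-6 family, moved in opposite directions, with 3072, 3746 and 2847 in the immature and 1296, 1826 and 1109 in the mature libraries of cDC2 (-1.21 ± 0.28) but a rise of 4.44 ± 0.26 in cDC1. Serpinb6b and Id2 rose in cDC2 by more than in cDC1, with differences of 1.21 ± 0.33 (adjusted p = 0.0196) and 1.49 ± 0.29 (adjusted p = 0.00161). Ccr7 rose by less than in cDC1 (-2.41 ± 0.45, adjusted p = 0.00127), and its mean in immature cDC1 was 714. Both subsets were sorted on CCR7, so its difference is not read as a finding. Ccl22 (-2.71), Fscn1 (-3.67) and Ccl5 (-2.61) also rose by less in cDC2, with adjusted p of 4.94e-05, 0.000125 and 0.000647. For Relb (-0.75 ± 0.37, adjusted p = 0.195), Nlrc5 (-0.05 ± 0.22, adjusted p = 0.917) and Top2a (-0.03 ± 0.27, adjusted p = 0.964) the difference did not pass the limits, which does not show that the changes were alike.

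**Figure D5:**
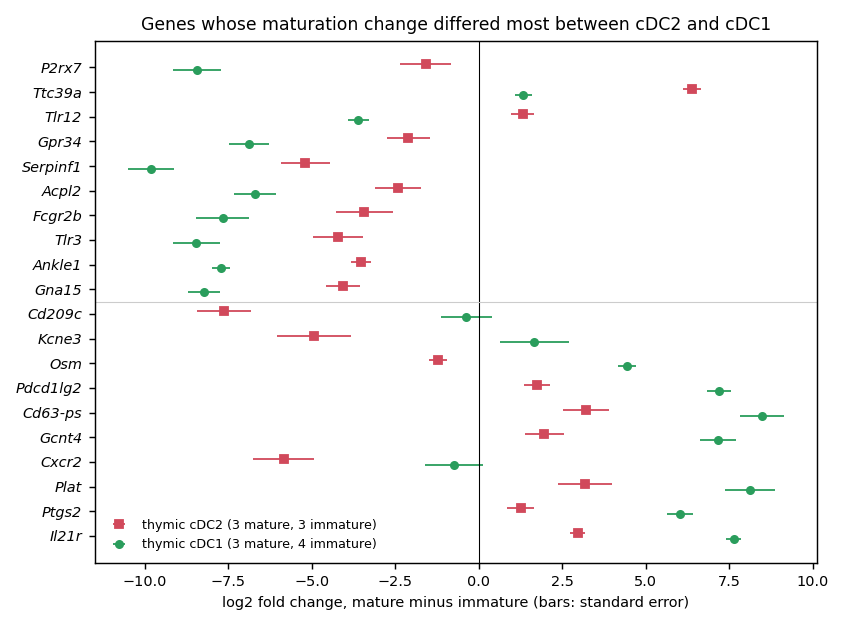
Log2 fold change at maturation (horizontal axis, mature minus immature, bars show the standard error) in thymic cDC2 (red squares) and thymic cDC1 (green circles) for the 20 genes with the largest differences between the subsets that were also called in cDC2. In the upper 10 the cDC2 value lies to the right, in the lower 10 to the left, and Osm, Kcne3 and Tlr12 lie on opposite sides of 0.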

How the data were processed

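RNA of thymic and splenic dendritic cells was made into stranded mRNA libraries (Truseq) and read as pairs on a HiSeq 3000. The authors trimmed reads with Cutadapt, mapped them to mm10 with STAR 2.6, counted them per gene with HTSeq-count and divided the counts by DESeq2 1.24.0 size factors. The deposited values are these normalized counts, a signal in units of scaled reads, for 37734 genes per library. GENCODE M21 named 37693 of the gene identifiers and gave coordinates and exon lengths. The length of a gene was the union of all its annotated exons, so levels per kilobase depend on the annotation.

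Values, after addition of a pseudocount of 1, were taken to log2 and tested with limma 3.58.1 (R 4.3.3), with 1 mean per group, an intensity trend and no covariate, over 20 samples of 6 groups. A pair of splenic cDC1 libraries with the same label was averaged to 1 sample. Genes that reached 10 in 3 or more samples were kept (14970). Calls needed a change of more than 1 on the log2 scale together with a p, adjusted after Benjamini and Hochberg, under 0.1. The labels describe pooled mice and do not tie a pool to an animal, so the p-values measure the spread between libraries, which may be partly technical.

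Whole reads could be recovered from the normalized counts, since values were whole multiples of 1 step per library within 1e-06. They were used for edgeR 4.0.16 and DESeq2 1.42.0 as alternatives, over 19 samples, without 1 immature thymic cDC1 library whose step could not be told from 1. The scripts were tested on simulated data. Other alternatives were the pseudocount, the filter, rescaling by TMM factors, the samples fitted, the lane, a replicate block, thinned reads, stricter limits and each library left out. The lists without mature replicate 3 and a random block on the label number in the test against cDC1 were added after the data were seen.

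Members of the comparison and the gene lists were chosen with earlier results of these data known. Named were members of the lists, first as listed and then by size of change or mean, the 15 largest rises and falls with a mean of 100 or more and separate groups, the 10 largest differences from cDC1 in each direction, up to 10 called genes that depended on mature replicate 3, the 8 genes with the largest share of reads, and Prss16, Ctss and Ctsl. Some list members out of that order were named after their values were seen. Unnamed gene models were passed over, and some items are not reported here. Promoter sequences are RefSeq windows of GRCm38.p6, searched over the 250 bases before each of 32851 starts.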

Additional observations from a re-analysis of the deposited data

Results flagged for a closer look

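The change at maturation differed between cDC2 and cDC1 in the test of the difference itself (limma, adjusted p below 0.1 and above 2-fold) for the genes below, each given as the log2 fold change in cDC2 minus that in cDC1. Among genes with the larger value in cDC2, P2rx7, an ATP-gated channel, had 6.84 ± 1.06, with -1.59 in cDC2 and -8.43 in cDC1, and its own fall in cDC2 was -0.92 and not called without mature replicate 3, and it lost the call in 8 other alternatives. Ttc39a had 5.04 and Tlr12, a receptor for profilin of parasites, 4.92, with changes of 1.31 in cDC2 and -3.60 in cDC1. The other values were 4.77 for Gpr34, 4.62 for Serpinf1, 4.27 for Acpl2, 4.25 for Fcgr2b, 4.25 for Tlr3, 4.20 for Ankle1 and 4.15 for Gna15, all of which fell in both subsets and by less in cDC2. Id2 and Serpinb6b, which were not among the largest, had 1.49 and 1.21.

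Among genes with the smaller value in cDC2, the lectin Cd209c had -7.26 ± 1.12, with -7.63 in cDC2 and -0.37 in cDC1. The chemokine receptor Cxcr2 (-5.09) and the channel subunit Kcne3 (-6.59) also fell in cDC2 and were not called in cDC1, and Osm (-5.65) fell in cDC2 and rose in cDC1. Pdcd1lg2 (-5.45), Cd63-ps (-5.27), Gcnt4 (-5.20), Plat, the tissue plasminogen activator (-4.94), Ptgs2, the inducible cyclooxygenase (-4.76), and Il21r (-4.67) rose in both and by less in cDC2. Fscn1 (-3.67), Ccl22 (-2.71), Ccl5 (-2.61) and Ccr7 (-2.41), on which both subsets were sorted, did so as well. Cd63-ps is a near copy of Cd63, and reads may have been split between them. Each named difference was called with edgeR and without each thymic cDC2 library in turn.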

How the results depend on the processing

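The count of genes called in thymic cDC2 maturation, 5329, lay within 1.5 times of itself under all 24 alternatives but 1, a limit of 4-fold, which left 2731 genes. Leaving out 1 library gave 5066 to 5297 genes, and 1649 to 2244 for the difference between cDC2 and cDC1. edgeR called 5398, DESeq2 5478 and lane 8 alone 4911. Adjusted p alone gave 7959. No gene called in an alternative went in the opposite direction to its call. The suffixes of the sample titles are shared by the groups, but same-suffix libraries did not deviate together (correlations of 0.153, 0.0708 and -0.115), and a replicate block on the suffix gave 5500 genes.

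Of 293 named genes that were called and followed through the alternatives, 21 lost the call in at least 1, 12 of them without mature replicate 3. Beside the cases in the report, Acpl2, Gpr34, Krt14 and Tlr5 lost it with a pseudocount of 0.1 and Psmb10, Rfxank and Tap1 with lane as a covariate. The named genes whose sign turned were not called in either fit. With edgeR (TMM and RLE factors) and DESeq2, C1qa was at 0.46, 0.41 and 0.41, C1qb at 0.44, 0.39 and 0.39 and Tlr9 at 0.054, 0.016 and 0.016. In lane 8 alone, C1qa was at 0.11, mt-Co1 at -0.028, Cd24a was at -0.19, Cd86 at -0.054 and Tlr9 at 0.0197. Over the fits with 1 library left out, C1qa ranged from -0.58 to 0.95, C1qb from -0.74 to 0.96, C1qc from -0.18 to 1.25, Lyz2 from -0.94 to 0.24, mt-Co1 from -0.036 to 0.16, Cd24a from -0.19 to 0.18, Cd86 from -0.054 to 0.13, Isg15 from -0.18 to 0.058, Tlr9 from -0.33 to 0.301, Unc93b1 from -0.24 to 0.16 and Usp18 from -0.18 to 0.022. For the difference from cDC1, Nlrc5 ranged from -0.15 to 0.042, Top2a from -0.11 to 0.10, and Top2a was at 0.0049 with edgeR. The causes were not tested. Between 3 libraries a group, changes near 2-fold and genes with few reads are the least certain.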
